A study of Mus musculus with 17 samples.

Results

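TRIM genes encode the tripartite motif proteins, and 59 of the 18262 genes with values in this study belong to the family by symbol (Trim directly followed by a digit). Of these, 50 reached the minimum for testing, which was 0.5 RPM (reads per 1000000 assigned reads) in at least 4 lung libraries, a minimum that 15422 genes reached. The other 9 (Trim9, Trim31, Trim34b, Trim40, Trim43a, Trim43c, Trim69, Trim71 and Trim80) stayed under it. A TRIM protein typically carries a RING finger, which transfers ubiquitin to a substrate, then a B-box, a coiled coil and a variable C-terminal part that chooses the substrate. Many TRIM ligases act in innate immunity, where they add ubiquitin chains to RNA and DNA sensors and their adaptors or bind viral capsids, and interferons induce a large share of these genes. Others have settled roles in striated muscle, in maturing red cells or as chromatin cofactors.

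The study sequenced RNA from whole lungs of C57BL/6 mice in 4 groups of 4 libraries each, and 1 library of an injected cell product. Lungs called naive_untreated came from mice with neither tumor nor treatment. Tumor-bearing mice had received 500000 M3-9-M rhabdomyosarcoma cells, labelled with ffluc-mCherry, in the gastrocnemius muscle, and their lungs were taken on day 15 (tumor_untreated). IL12-GEMy cells are bone marrow myeloid cells engineered to secrete interleukin-12, through which myeloid cells prompt NK and T cells to make interferon-gamma. A dose of 8000000 of these cells was given intravenously 3 days before harvest to naive mice (naive_GEMy) or, on day 12, to tumor-bearing mice (tumor_GEMy). The product library is bone marrow of naive C57BL/6 mice after lentiviral transduction in the presence of SCF, FLT3L and IL-6. The lung samples thus concern a tissue distant from the tumor, the pre-metastatic niche of the study's title. The titles number the samples without saying that each is a separate mouse, so the p-values speak only of the spread among the libraries, and age is not given in the sources used here. In bulk lung, fewer cells of a type and less RNA per cell cannot be told apart.

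The lung libraries held 27566812 to 36815011 recovered assigned reads, the product library 31111169, and replicates of a group correlated at r of 0.980 to 0.996 across genes. Airway and alveolar epithelial markers summed to 23793 to 38241 RPM and 18512 to 29387 RPM in the lungs, against 0.514 and 91.6 RPM in the product, with Scgb3a2, Bpifa1, Sftpb and Sftpa1 at 0 reads there. Within tumor_untreated, replicate 1 stood apart from the others: 12 interferon markers summed to 959 RPM in it and to 1696, 2169 and 2857 RPM in replicates 2, 3 and 4, and 10 T and NK cell markers to 174 RPM against 358 to 397 RPM. Hemoglobin took 4.15% of reads in tumor_untreated replicate 4 and 0.0735 to 1.78% in every other lung library. Descriptions of the tumor samples carry the number 1 for all untreated and 2 for all treated libraries, and whatever that number marks cannot be told apart from treatment.

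Several of the genes that changed lie at 1 locus. Mouse chromosome 7 holds 9 TRIM genes in 289 kb (mm10 104218795 to 104507849): Trim6, Trim34a, Trim5, Trim12a, Trim34b, Trim12c, Trim30b, Trim30a and Trim30d, the relatives of human TRIM5, whose product restricts retroviruses. Trim21 lies on the same chromosome outside this stretch. Promoter sequences were available from RefSeq (GRCm38.p6) for 46 of the 59 genes, each from 250 bases before to 50 bases after a start site. They were searched on both strands for the core of the interferon-stimulated response element (GAAA, any 2 bases, GAAA), which IRF factors and STAT complexes bind, and for the core of the gamma-activated site, TTCNNNGAA, which STAT dimers bind. The first core was present in 9 of 46 TRIM genes (19.6%) and in 1079 of 27025 genes of the table (3.99%), and in 6 of the 9 genes of the chromosome 7 cluster. Outside the cluster it was found in Trim21, Trim26 and 1 of the start sites of Trim2. The second was present in 4 of 46 TRIM genes (8.70%), beside 9.55% of all genes, and in 0 of the cluster's 9. The stretches below are shown because they carry the match, in capitals. Those of Trim30a, Trim30d, Trim12a, Trim12c, Trim34a and Trim21 belong to genes whose RNA rose with treatment, and those of Trim5 and Trim26 to genes that held the core and were not called. Each is written 5′ to 3′ on the gene's strand and holds the match with up to 25 bases on each side, ending at most 30 bases after the start site.
Trim30a, chr7:104465195-104465254, minus strand: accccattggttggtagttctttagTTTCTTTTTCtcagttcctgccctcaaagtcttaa
Trim30d, chr7:104507856-104507915, minus strand: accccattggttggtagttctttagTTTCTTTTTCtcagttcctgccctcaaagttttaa
Trim12a, chr7:104315466-104315510, minus strand: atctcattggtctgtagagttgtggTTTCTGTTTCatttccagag
Trim12c, chr7:104353344-104353403, minus strand: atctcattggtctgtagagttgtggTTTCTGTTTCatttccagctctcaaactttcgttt
Trim5, chr7:104288121-104288180, minus strand: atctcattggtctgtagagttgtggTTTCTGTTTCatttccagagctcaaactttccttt
Trim34a, chr7:104244442-104244486, plus strand: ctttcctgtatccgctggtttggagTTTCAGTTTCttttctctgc
Trim21, chr7:102565453-102565494, minus strand: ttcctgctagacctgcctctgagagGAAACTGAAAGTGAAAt
Trim26, chr17:36836961-36837026, plus strand: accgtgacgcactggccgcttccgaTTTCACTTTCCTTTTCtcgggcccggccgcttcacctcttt

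Trim30a and Trim30d carried the same core with nearly the same flanks, at positions -36 to -27 and -41 to -32 counted from the first transcribed base as 1. Trim5, Trim12a and Trim12c formed a second set of near-identical stretches, and that of Trim12a is contained letter for letter in that of Trim5. In Trim21 and Trim26 the capitals cover a pair of overlapping matches. Trim30b held neither core in its window. Trim30a has another start site, whose stretch held the same core and is not printed. The start site used for Trim30b is at the edge of its listed gene, which is shorter than its transcript. The 150 bases before that site are set beside those of Trim30a because the levels of these neighbouring genes differed in pattern across the lung groups. The part of these stretches in the levels was not tested.
Trim30a, chr7:104465194-104465343, minus strand: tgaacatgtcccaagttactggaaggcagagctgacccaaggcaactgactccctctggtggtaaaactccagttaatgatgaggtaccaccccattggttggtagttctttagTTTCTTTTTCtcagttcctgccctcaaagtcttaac
Trim30b, chr7:104358647-104358796, minus strand: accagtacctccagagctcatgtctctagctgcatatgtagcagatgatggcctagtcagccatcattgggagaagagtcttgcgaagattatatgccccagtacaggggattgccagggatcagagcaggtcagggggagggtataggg

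All 6 of the TRIM genes that rose with IL12-GEMy in naive lung and have a promoter entry (Trim12a, Trim12c, Trim21, Trim30a, Trim30d and Trim34a) held the interferon core. The same core was found in 103 of 609 (16.9%) of all genes that rose there. All of the 6 but Trim21 lie in the chromosome 7 cluster. The stretches of Trim30a and Trim30d, and those of Trim12a and Trim12c, are near-identical, so the 6 are not independent promoters. Of the TRIM genes that rose with tumor in untreated lung, 6 of 10 held it, beside 153 of 1777 (8.61%) of all genes that rose. Trim5, Trim26 and Trim2 held the core and did not pass the test in either comparison. A match in these letters is a description of the sequence, and binding was not measured.

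**Figure D1:**
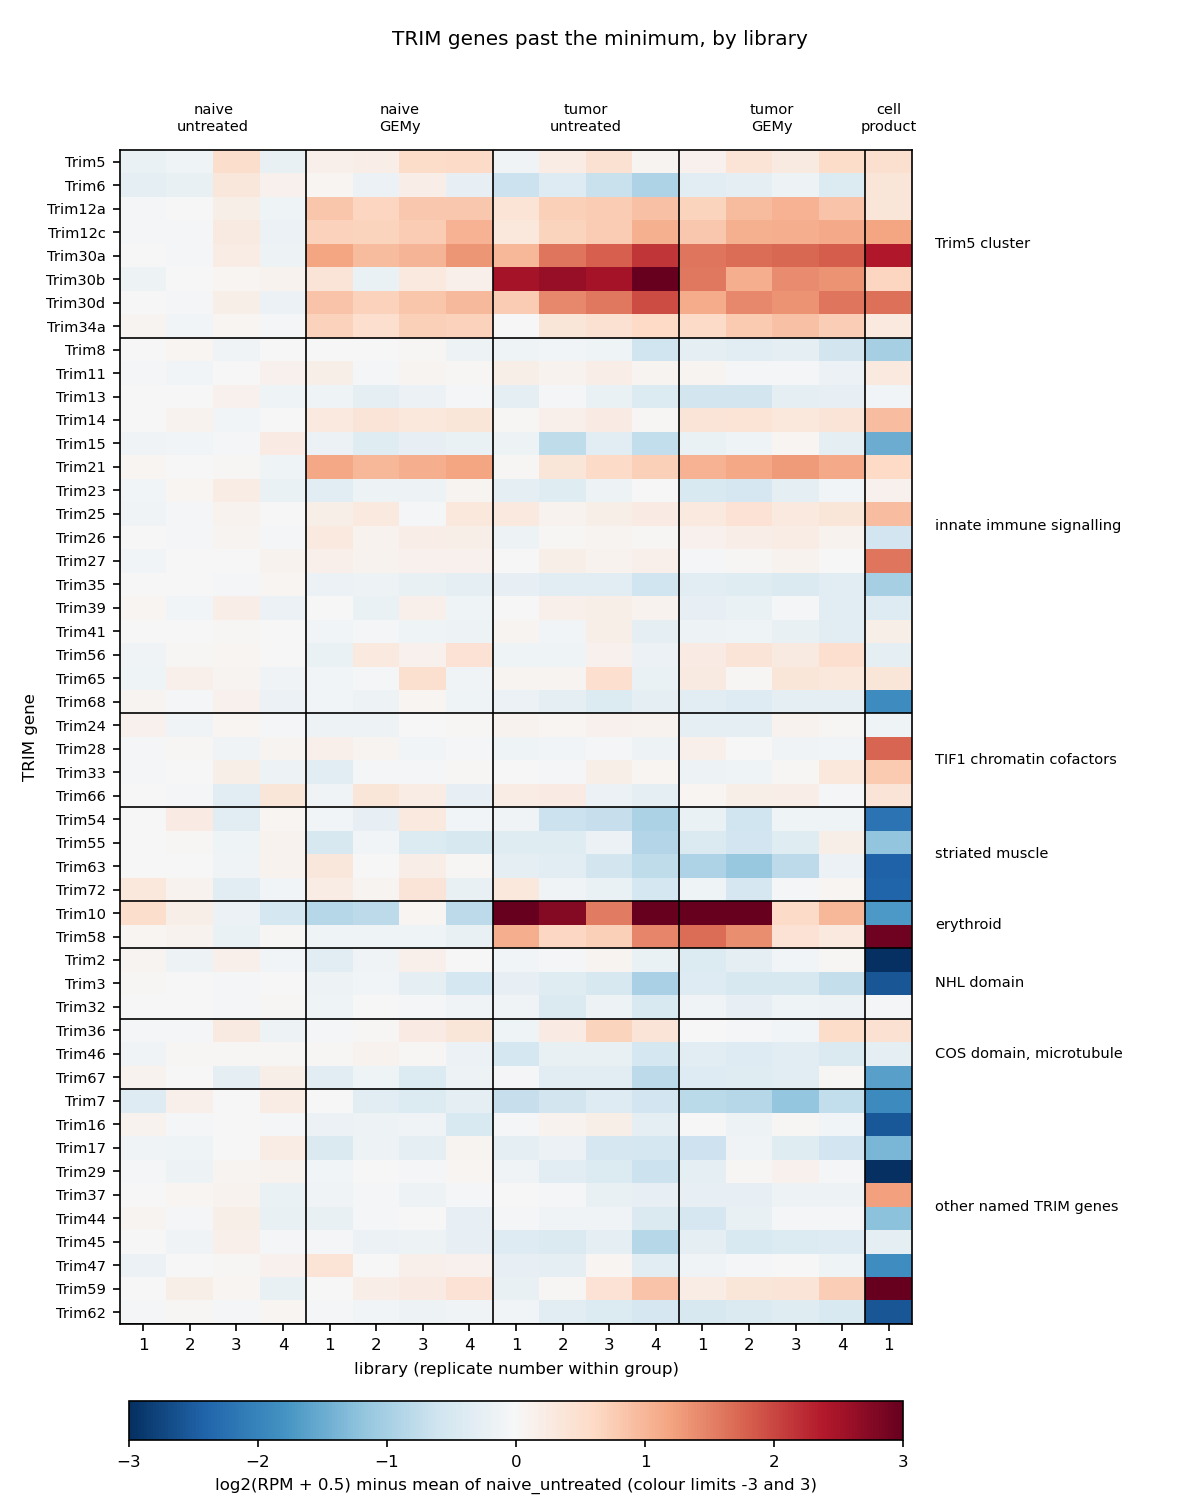
Level of each of the 50 TRIM genes past the minimum in each library (columns), as log2(RPM + 0.5) minus the mean of the 4 naive_untreated lungs, in colour from -3 to 3, with genes in rows by family group. Trim30a, Trim30d, Trim12a, Trim12c, Trim34a and Trim21 are red in most treated or tumor-bearing lungs, Trim30b is red in tumor-bearing lungs, Trim10 and Trim58 are red in tumor-bearing lungs, and the product column holds the deepest blues.

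Differences between lung groups are given as log2 differences of RPM + 0.5 from limma, fitted over all 15422 genes and 16 lungs, with Benjamini-Hochberg adjusted p-values and a threshold of 0.05. Folds are on the same RPM + 0.5 scale, which understates changes of genes with few reads. Values of RPM are compared within a gene and not between genes. IL12-GEMy in naive lung raised 7 of 50 TRIM genes (14%), beside 5.12% of all genes tested, and lowered 0, beside 1.58%. Those 7 were Trim30a, Trim21, Trim30d, Trim12c, Trim12a, Trim34a and Trim14, and 5 of them belong to the chromosome 7 cluster. With 0 genes lower, limma still gave 12 TRIM genes in either direction an unadjusted p under 0.05, and 1 gene, Trim35, counted as lower when only the compared groups were fitted or tumor_untreated replicate 4 was left out. Tumor in untreated lung raised 10 (20%, beside 14.7% of all genes) and lowered 14 (28%, beside 26.0%), so the share that fell was near that of all genes. The 10 include Trim58, which passed the minimum only through tumor-bearing lungs. Scaling by median-of-ratios factors turned these 10 and 14 into 13 and 12. In that scaling the split over all genes went from 2271 higher and 4006 lower to 3104 and 2522.

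In tumor-bearing lung IL12-GEMy raised 4 TRIM genes, Trim21, Trim56, Trim34a and Trim14 (8%, beside 2.42% of all genes), and lowered 2, Trim30b and Trim39 (4%, beside 2.81%). Among treated lungs, tumor raised Trim10, Trim30b, Trim58 and Trim30a (8%, beside 3.85%) and lowered Trim63, Trim7, Trim46, Trim8 and Trim62 (10%, beside 6.58%). Trim58 passed the minimum only through tumor-bearing lungs. Median-of-ratios scaling gave 5 higher and 3 lower here, and over all genes 834 higher and 485 lower in place of 593 and 1014. The median log2 difference of the 50 TRIM genes was -0.071, -0.027, 0.0048 and -0.036 in the order tumor alone, treatment in naive lung, treatment in tumor-bearing lung and tumor among treated lungs. Over all genes it was -0.090, -0.036, -0.014 and -0.066. The family's medians lay close to those of all genes. Pairs of these comparisons share libraries, so they are not independent of each other.

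Trim30a (chromosome 7, 104409026 to 104465193, minus strand), which restrains NF-kappaB signalling downstream of Toll-like receptors, measured 47.4, 46.8, 55.9 and 43.1 RPM in naive_untreated, 109, 93.6, 97.9 and 120.5 in naive_GEMy, 96.9, 147, 167 and 215 in tumor_untreated, 148, 155, 159 and 170.5 in tumor_GEMy lungs and 257 in the cell product. Every treated or tumor-bearing lung was above the highest naive_untreated lung, and the tumor_GEMy lungs lay inside the wide range of tumor_untreated. The rise was 3.10-fold with tumor (log2 difference 1.63 ± 0.17 (SE), adjusted p = 1.71e-06) and 2.17-fold with IL12-GEMy in naive lung (log2 difference 1.12 ± 0.17 (SE), adjusted p = 0.000296). Adding treatment to tumor gave 0.071 (95% interval -0.28 to 0.42, adjusted p = 0.882). Among treated lungs tumor raised Trim30a by 0.59 ± 0.17 on the log2 scale (SE, adjusted p = 0.0341), a call that ended when naive_GEMy replicates 1, 2 or 3 or any 1 of the tumor_GEMy libraries was left out (adjusted p 0.0579 to 0.0932).

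Trim30d is a close paralog of Trim30a at the same locus and shares 6.99% of its 50-base transcript windows with it. It (chromosome 7, 104470014 to 104507849, minus strand) measured 17.5, 16.96, 19.8 and 15.2 RPM in naive_untreated, 31.8, 28.4, 31.1 and 34.2 in naive_GEMy, 29.7, 47.9, 52.9 and 68.3 in tumor_untreated, 37.8, 47.6, 44.8 and 53.4 in tumor_GEMy lungs and 55.1 in the cell product. The naive_untreated lungs were lowest and overlapped no other group. The differences were 1.44 ± 0.18 on the log2 scale (SE, adjusted p = 1.36e-05) with tumor and 0.84 ± 0.18 on the log2 scale (SE, adjusted p = 0.00703) with treatment in naive lung. In tumor-bearing lung treatment gave -0.065 (95% interval -0.44 to 0.31, adjusted p = 0.901).

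Trim30b is listed as a gene of only 3249 bases, and its transcript used for shared windows is longer, at 4287 bases. The listed gene thus cannot hold all of that transcript. Across the groups Trim30b showed another pattern. It (chromosome 7, 104355398 to 104358646, minus strand) measured 2.40, 2.66, 2.85 and 2.93 RPM in naive_untreated, 3.70, 2.27, 3.44 and 3.08 in naive_GEMy, 17.6, 19.1, 17.7 and 25.5 in tumor_untreated, 9.02, 6.27, 8.11 and 7.59 in tumor_GEMy lungs and 4.50 in the cell product. The tumor_untreated lungs stood far above every other group, the tumor_GEMy lungs stood between, and both naive groups overlapped. Tumor alone raised it 6.32-fold (log2 difference 2.66 ± 0.14 (SE), adjusted p = 1.01e-09), while treatment in naive lung gave 0.16 (95% interval -0.14 to 0.46, adjusted p = 0.582). In tumor-bearing lung treatment lowered it (log2 difference -1.31 ± 0.14 (SE), adjusted p = 5.6e-05), and treated tumor-bearing lungs stayed above treated naive lungs (log2 difference 1.19 ± 0.14 (SE), adjusted p = 5.57e-05). These 3 calls were kept under each alternative that was run.

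Neutrophil markers were also higher in tumor-bearing lungs. The 12 markers summed to 367 to 515 RPM in naive_untreated, 333 to 525 in naive_GEMy, 3332 to 5590 in tumor_untreated and 1840 to 5730 in tumor_GEMy lungs, and to 3029 RPM in the product, where Trim30b stood at 4.50 RPM. With tumor alone 10 of the 12 rose (Ly6g by 4.76 and S100a8 by 4.55 log2 units), and with treatment in tumor-bearing lung 2 fell, Csf3r by -1.07 and Cxcr2 by -0.97. The tumor_GEMy library with the highest neutrophil sum, replicate 1 at 5730 RPM, had 9.02 RPM of Trim30b. That was the highest of its group and below all tumor_untreated libraries. In tumor_untreated, replicate 4 had both the highest neutrophil sum (5590 RPM) and the highest Trim30b (25.5 RPM). The other libraries of each group did not rank alike in neutrophil sum and Trim30b. With tumor alone, where 14.7% of all genes rose, 8 of 9 monocyte and macrophage markers rose, led by Fcgr4 and Ly6c2. The part of these cells in the Trim30b values was not tested.

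Trim12a and Trim12c, mouse relatives of TRIM5, rose with tumor alone and with treatment alone. Trim12a (chromosome 7, 104299897 to 104315495, minus strand) measured 21.5, 22.3, 25.1 and 20.5 RPM in naive_untreated, 39.9, 35.1, 39.5 and 39.7 in naive_GEMy, 29.7, 36.8, 38.3 and 41.4 in tumor_untreated, 35.6, 43.2, 46.2 and 40.8 in tumor_GEMy lungs and 29.03 in the cell product. Trim12c (chromosome 7, 104338754 to 104353358, minus strand) measured 37.6, 37.4, 47.5 and 34.8 RPM in naive_untreated, 63.1, 62.4, 66.8 and 80.5 in naive_GEMy, 48.8, 62.7, 66.2 and 81.9 in tumor_untreated, 69.01, 82.7, 83.6 and 86.9 in tumor_GEMy lungs and 90.00 in the cell product. For both genes each treated or tumor-bearing lung exceeded every naive_untreated lung. Trim12a differed by 0.69 ± 0.10 on the log2 scale (SE, adjusted p = 5.32e-05) with tumor, and by 0.77 ± 0.10 on the log2 scale (SE, adjusted p = 4.31e-05) with treatment in naive lung. Trim12c differed by 0.70 (adjusted p = 0.000669) and 0.79 (adjusted p = 0.000866) in the same order. Treatment in tumor-bearing lung gave 0.18 (95% interval -0.03 to 0.39, adjusted p = 0.368) for Trim12a and 0.33 (95% interval 0.046 to 0.61, adjusted p = 0.191) for Trim12c, and the latter passed only without tumor_untreated replicate 4 (0.45, adjusted p = 0.0485).

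Trim34a (chromosome 7, 104244457 to 104262236, plus strand), a relative of TRIM34 at the other end of the cluster, measured 37.5, 33.7, 37.2 and 33.99 RPM in naive_untreated, 58.1, 50.9, 58.5 and 57.5 in naive_GEMy, 35.9, 46.04, 49.1 and 54.3 in tumor_untreated, 53.3, 61.5, 65.3 and 59.7 in tumor_GEMy lungs and 43.97 in the cell product. Its highest levels were in treated lungs, and tumor_untreated overlapped naive_untreated through replicate 1 alone. Treatment raised it in naive lung (log2 difference 0.65 ± 0.10 (SE), adjusted p = 0.000363) and tumor raised it in untreated lung (log2 difference 0.36 ± 0.10 (SE), adjusted p = 0.00969). The rise with treatment in tumor-bearing lung (log2 difference 0.38 ± 0.10 (SE), adjusted p = 0.0355) was lost without tumor_GEMy replicates 2, 3 or 4 or tumor_untreated replicates 1 or 2 (adjusted p 0.061 to 0.104), and with only the compared groups in the fit (adjusted p = 0.168). With plain moderation that rise was also lost (adjusted p = 0.0509). Trim34a shares 41.3% of its transcript windows with Trim34b, which stayed at 0.0391 to 0.537 RPM in the lungs.

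Trim5 passed no test in the main fit, and Trim6 fell with tumor. Trim5 (chromosome 7, 104264448 to 104288106, minus strand) measured 6.95, 7.33, 11.8 and 6.78 RPM in naive_untreated, 9.01, 9.20, 12.1 and 12.1 in naive_GEMy, 7.37, 9.41, 11.2 and 8.49 in tumor_untreated, 8.75, 10.9, 9.76 and 11.9 in tumor_GEMy lungs and 11.4 in the cell product. Treatment in naive lung gave 0.37 (95% interval 0.022 to 0.72, adjusted p = 0.22), and without naive_untreated replicate 3, the library with 11.8 RPM, the value was 0.55 (adjusted p = 0.0324). Trim6 (chromosome 7, 104218795 to 104235152, plus strand), which makes unanchored ubiquitin chains in interferon signalling, measured 1.79, 1.87, 2.99 and 2.52 RPM in naive_untreated, 2.39, 1.93, 2.67 and 1.83 in naive_GEMy, 1.27, 1.59, 1.23 and 0.955 in tumor_untreated, 1.68, 1.77, 1.97 and 1.58 in tumor_GEMy lungs and 3.05 in the cell product. It was the only cluster gene that fell with tumor (log2 difference -0.66 ± 0.15 (SE), adjusted p = 0.0029), and tumor_untreated lungs were all below naive_untreated lungs. Trim5 shares 30.9%, Trim12c 26.5% and Trim12a 23.5% of their 50-base windows with another gene of the cluster, against 6.07% in Trim30a, 0.731% in Trim30b and 0 in Trim6. How reads that fit several copies were assigned is not given in the sources used here, so values of the Trim5, Trim12 and Trim34 copies are uncertain between copies. Strand use in counting is not given either, so reads of Trim12a and Gm15133, Trim14 and Gm16731, Trim2 and Gm6525, Trim32 and Astn2, and Trim35 and 1700001G11Rik, which overlap, cannot be told apart where they share sequence.

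**Figure D2:**
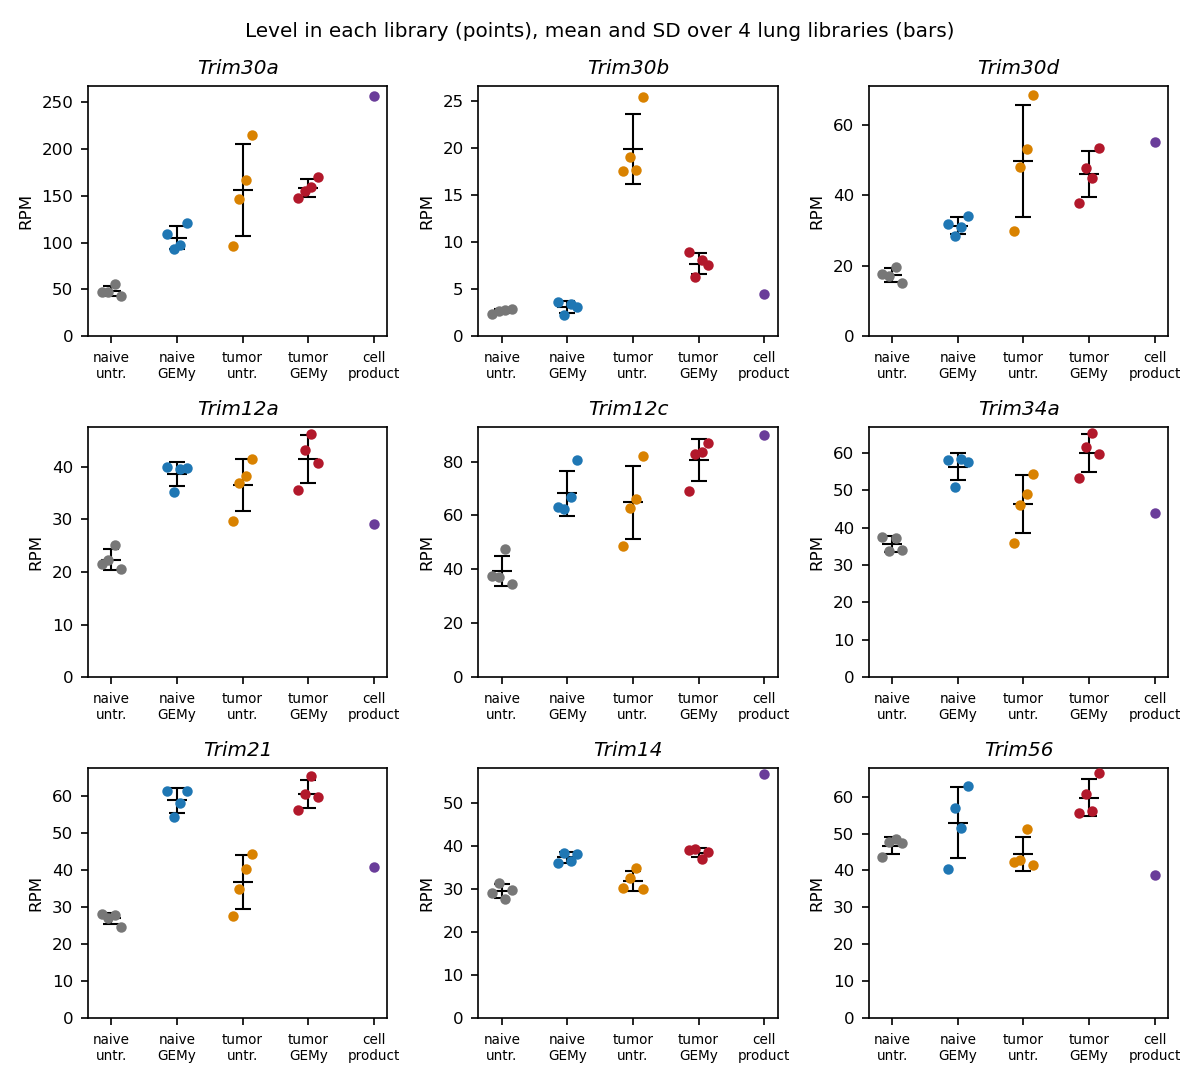
RPM of 9 TRIM genes in each library (points), with mean and SD over the 4 lungs of a group (bars) and 1 point for the cell product. Trim30b peaks in tumor_untreated lungs at 17.6 to 25.5 RPM, whereas Trim21 lies at 54.4 to 65.6 RPM in both treated groups and at 27.7 to 44.5 RPM in tumor_untreated lungs.

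Combined effects were smaller than the sum of the single effects for 4 TRIM genes, all in the chromosome 7 cluster. The interaction is the treatment difference in tumor-bearing lung minus that in naive lung. It was negative past the threshold for 4 of 50 TRIM genes (8%, beside 3.94% of all genes) and positive for 0, beside 1.03%. With 0 on the positive side, limma gave an unadjusted p under 0.05 to 12 TRIM genes in either direction, and 1 gene, Trim15, was called positive without tumor_untreated replicate 1. The values were -1.47 ± 0.20 on the log2 scale (SE, adjusted p = 0.000836) for Trim30b, -1.05 ± 0.24 on the log2 scale (SE, adjusted p = 0.0154) for Trim30a, -0.59 ± 0.14 on the log2 scale (SE, adjusted p = 0.0193) for Trim12a and -0.90 ± 0.25 on the log2 scale (SE, adjusted p = 0.0481) for Trim30d. That of Trim30d is at the edge: leaving out any of 14 lung libraries, which are all but tumor_untreated replicate 1 and tumor_GEMy replicate 4, ended the call or put it at the threshold (adjusted p 0.05 to 0.102). That call was also lost on the FPKM scale (adjusted p = 0.0939) and with plain moderation (adjusted p = 0.059), quantile normalization (adjusted p = 0.0516) or no minimum (adjusted p = 0.0502). Leaving out tumor_untreated replicate 1 gave -1.13 for Trim30d (adjusted p = 0.000279) and brought Trim21 (-0.51, adjusted p = 0.00749), Trim12c (-0.59, adjusted p = 0.0289) and Trim34a (-0.39, adjusted p = 0.0365) past the threshold.

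Beside these genes, markers of the interferon response and of some leukocytes were called, and others were not or fell. All 12 interferon markers rose with tumor alone and with treatment alone, led in both by Cxcl9 and Cxcl10, and 6 rose further with treatment in tumor-bearing lung. Their interaction was negative for 9 of 12, beside 3.94% of all genes. The sum was 537 to 586 RPM in naive_untreated, 3241 to 4002 in naive_GEMy, 959 to 2857 in tumor_untreated, 3832 to 4983 in tumor_GEMy lungs and 1544 RPM in the product. The interaction was also negative for 8 of 9 monocyte and macrophage markers and 5 of 10 T and NK cell markers, for 1 of 12 neutrophil markers and for 0 of 7 B cell markers. With treatment in naive lung 0 of 12 neutrophil markers were called, and with tumor alone 5 of 7 B cell markers fell and 0 rose. The part of cell composition in the TRIM values was not tested.

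Among TRIM ligases of innate signalling outside the cluster (19 listed, 16 tested), treatment raised 2 in naive lung, where 5.12% of all genes rose. In tumor-bearing lung it raised 3 and lowered 1, beside 2.42% and 2.81% of all genes. Tumor alone raised 2 and lowered 3 of the 16, beside 14.7% and 26.0% of all genes. Trim21 (chromosome 7, 102557920 to 102565482, minus strand), the cytosolic Fc receptor that sends antibody-coated virus to the proteasome, measured 28.2, 27.2, 27.8 and 24.7 RPM in naive_untreated, 61.4, 54.4, 58.3 and 61.4 in naive_GEMy, 27.7, 35.04, 40.4 and 44.5 in tumor_untreated, 56.2, 60.5, 65.6 and 59.8 in tumor_GEMy lungs and 40.9 in the cell product. Both treated groups stood above every untreated lung, tumor-bearing or not. Treatment raised Trim21 in naive lung by 1.11 ± 0.11 on the log2 scale (SE, adjusted p = 1.44e-06) and in tumor-bearing lung by 0.73 ± 0.11 on the log2 scale (SE, adjusted p = 0.000668). Tumor alone raised it by 0.42 ± 0.11 on the log2 scale (SE, adjusted p = 0.0053), with overlap between groups through tumor_untreated replicate 1, while among treated lungs tumor gave 0.04 (95% interval -0.19 to 0.27, adjusted p = 0.841).

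Trim14 (chromosome 4, 46505072 to 46536141, minus strand), an adaptor of mitochondrial antiviral signalling that lacks a RING, measured 29.1, 31.5, 27.6 and 29.7 RPM in naive_untreated, 36.01, 38.4, 36.5 and 38.2 in naive_GEMy, 30.3, 32.5, 34.8 and 29.9 in tumor_untreated, 38.9, 39.1, 36.96 and 38.6 in tumor_GEMy lungs and 56.6 in the cell product. Treated lungs lay above untreated lungs of the same tumor status without overlap. The rise was 0.34 ± 0.064 on the log2 scale (SE, adjusted p = 0.00262) in naive lung and 0.27 ± 0.064 on the log2 scale (SE, adjusted p = 0.0182) in tumor-bearing lung, and the second was lost without tumor_GEMy replicate 2 (adjusted p = 0.0625) or with only the compared groups fitted (adjusted p = 0.122). Trim56 (chromosome 5, 137111286 to 137116207, minus strand), a ligase in cytosolic nucleic acid sensing, measured 43.5, 47.6, 48.5 and 47.3 RPM in naive_untreated, 40.4, 57.03, 51.5 and 62.8 in naive_GEMy, 42.3, 42.8, 51.2 and 41.4 in tumor_untreated, 55.5, 60.8, 56.1 and 66.3 in tumor_GEMy lungs and 38.8 in the cell product. Its rise with treatment in tumor-bearing lung (log2 difference 0.42 ± 0.11 (SE), adjusted p = 0.0292) did not pass without tumor_GEMy replicates 2 or 4 or tumor_untreated replicates 2 or 4 (adjusted p 0.067 to 0.0818). Nor did it pass with only the compared groups fitted (adjusted p = 0.0527) or with hemoglobin as a covariate (adjusted p = 0.0502). In naive lung treatment gave 0.16 (95% interval -0.069 to 0.39, adjusted p = 0.447).

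Trim25, which activates the RNA sensor RIG-I with ubiquitin chains, measured 129, 136, 149 and 139.9 RPM in naive_untreated, 155, 171, 135 and 172 in naive_GEMy, 170.5, 149, 156 and 164 in tumor_untreated, 171, 187, 171 and 178 in tumor_GEMy lungs and 261 in the cell product. The tumor_untreated lungs lay just above the naive_untreated lungs. Its rise with tumor (log2 difference 0.21 ± 0.079 (SE), adjusted p = 0.0441) was lost without naive_untreated replicates 1, 2 or 4, tumor_untreated replicates 1, 3 or 4, naive_GEMy replicate 1 or tumor_GEMy replicate 3 (adjusted p 0.0502 to 0.125). That rise was also lost with quantile normalization (adjusted p = 0.079), plain moderation (adjusted p = 0.0543), only the compared groups fitted (adjusted p = 0.0516) or no minimum (adjusted p = 0.0504). Treatment gave 0.19 (95% interval 0.021 to 0.35, adjusted p = 0.189) in naive lung, which passed without naive_GEMy replicate 3 (0.26, adjusted p = 0.0425).

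Trim26, a regulator of IRF3 and interferon-beta, measured 67.5, 64.1, 70.5 and 65.04 RPM in naive_untreated, 81.2, 72.3, 76.97 and 75.2 in naive_GEMy, 59.7, 68.8, 70.1 and 68.8 in tumor_untreated, 73.3, 76.9, 78.1 and 72.1 in tumor_GEMy lungs and 44.8 in the cell product. Treatment gave 0.19 (95% interval 0.056 to 0.33, adjusted p = 0.093) in naive lung, and the groups there did not overlap. It passed without tumor_untreated replicate 1 (adjusted p = 0.0467) and with median-of-ratios scaling (adjusted p = 0.043). Trim39, a ligase that inhibits the anaphase-promoting complex, measured 31.00, 28.2, 34.7 and 26.4 RPM in naive_untreated, 30.02, 25.8, 33.1 and 27.1 in naive_GEMy, 30.2, 33.4, 33.7 and 32.2 in tumor_untreated, 25.04, 25.8, 28.6 and 23.6 in tumor_GEMy lungs and 22.6 in the cell product. Its fall with treatment in tumor-bearing lung (log2 difference -0.33 ± 0.093 (SE), adjusted p = 0.0488) was lost without naive_untreated replicates 1 or 2, naive_GEMy replicates 1 or 4, tumor_GEMy replicates 1, 2 or 4 or tumor_untreated replicates 2, 3 or 4 (adjusted p 0.0574 to 0.125). The Trim39 call also ended with only the compared groups fitted (adjusted p = 0.0837), plain moderation (adjusted p = 0.0632), quantile normalization (adjusted p = 0.0592) or no minimum (adjusted p = 0.0553). Hemoglobin as a covariate ended that call too (adjusted p = 0.0537). Of the remaining genes of the group, Trim15 (-0.50, adjusted p = 0.0114), Trim35 (-0.38, adjusted p = 0.000485) and Trim68 (-0.30, adjusted p = 0.00912) fell with tumor alone. Trim8 fell with tumor among treated lungs (-0.34, adjusted p = 0.0354). The call ended without naive_GEMy replicates 1, 2 or 3 or tumor_GEMy replicates 1, 2 or 4 (adjusted p 0.0513 to 0.1). Median-of-ratios scaling also ended it (adjusted p = 0.0808).

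**Figure D3:**
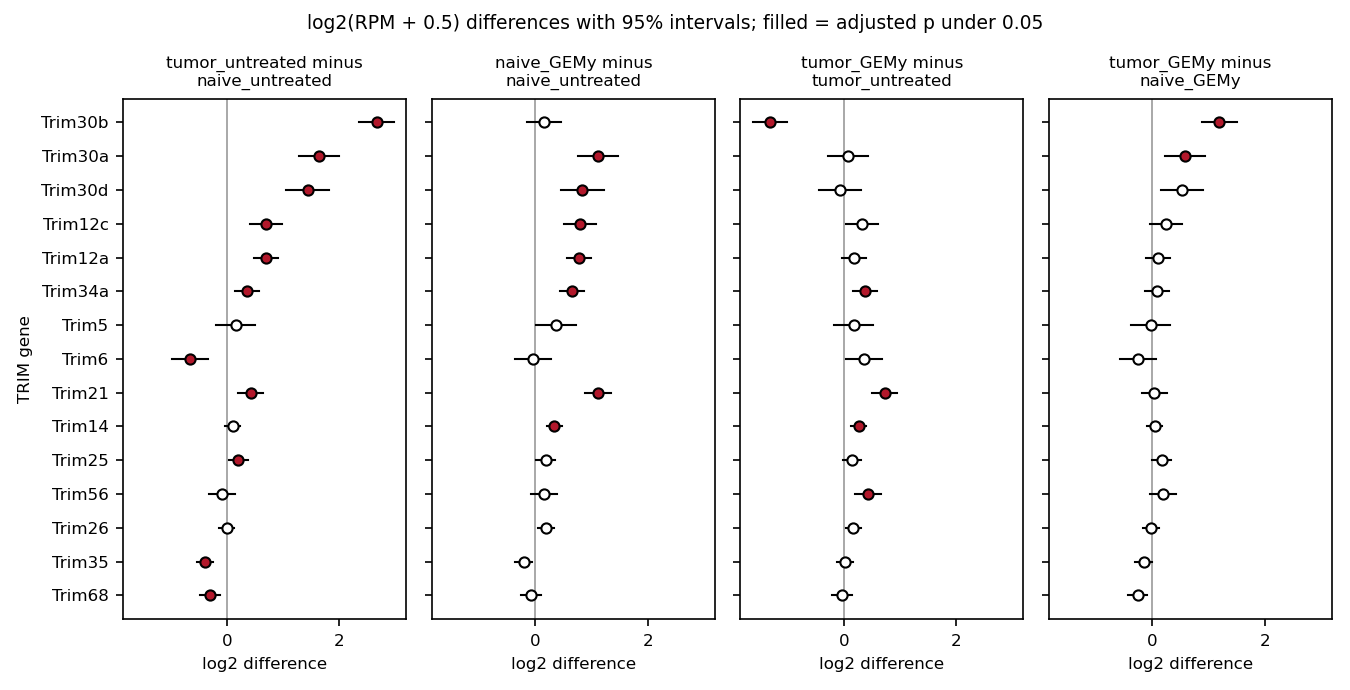
Log2 differences of RPM + 0.5 for 15 TRIM genes of the Trim5 cluster and of innate signalling in the 4 pairwise comparisons, with 95% intervals, filled where the adjusted p was under 0.05. Trim30b is at 2.66 with tumor alone and at -1.31 with treatment in tumor-bearing lung, and Trim21 is at 1.11 and 0.73 in the treatment comparisons.

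Partners of these ligases were called in the same comparisons. With tumor alone 14.7% of all genes rose and 26.0% fell, and with treatment in naive lung 5.12% rose and 1.58% fell. Treatment in tumor-bearing lung raised 2.42%, and the interaction was negative for 3.94%. Of 16 listed genes for RNA and DNA sensing that TRIM ligases modify or that act beside them, 9 rose and 1 fell with tumor alone, and 7 rose and 0 fell with treatment in naive lung. Irf7, the interferon regulatory factor that amplifies the response, led with log2 differences of 1.88 (adjusted p = 5.53e-06) and 2.02 (adjusted p = 6.23e-06), and Dhx58, an RNA helicase of the RIG-I group, followed with 1.05 and 1.20. In tumor-bearing lung treatment raised 2, Ifih1 (0.51, adjusted p = 0.0114) and Ddx58, the gene of RIG-I (0.35, adjusted p = 0.0278). Of 17 genes for ubiquitin and ISG15 conjugation, 6 rose and 1 fell with tumor and 4 rose and 0 fell with treatment in naive lung, with Isg15, a ubiquitin-like modifier, at 2.09 and 2.07. Treatment in tumor-bearing lung raised 3 of the 17, led by Herc6 (0.87) and Uba7 (0.78). The interaction was negative for Irf7, Dhx58 and Isg15 (-1.40, -0.86 and -1.43). The median log2 difference of the sensing genes was 0.35 with tumor and 0.18 with treatment in naive lung, and of the conjugation genes 0.11 and 0.053, against -0.090 and -0.036 over all genes.

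TRIM proteins whose genes carry other names were represented by 5 genes. Of these, 1 rose and 2 fell with tumor alone, beside 14.7% and 26.0% of all genes. With treatment in naive lung 2 rose, beside 5.12%. Mefv, which encodes pyrin, an inflammasome sensor of phagocytes, rose with tumor (3.18, adjusted p = 3.83e-09) and with treatment in naive lung (0.99, adjusted p = 0.00335), and fell with treatment in tumor-bearing lung (-1.34, adjusted p = 0.000578). Its interaction was -2.33 (adjusted p = 0.000414). Pml, the scaffold of nuclear bodies, rose with treatment in naive (0.67, adjusted p = 0.000237) and tumor-bearing lung (0.72, adjusted p = 0.000452), and with tumor alone it was at 0.036 (adjusted p = 0.793). Bspry and Mid1 fell with tumor alone, and Mid2 passed no test.

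The TIF1 genes, nuclear TRIM proteins with PHD and bromodomains that read histone marks, passed the test in no lung comparison. Trim28, the corepressor that KRAB zinc finger proteins recruit, measured 120.0, 125, 114 and 129.9 RPM in naive_untreated, 135, 129.9, 116 and 118 in naive_GEMy, 112, 115, 118 and 109 in tumor_untreated, 135, 122, 114 and 115 in tumor_GEMy lungs and 408 in the cell product. Trim24 measured 31.9, 27.00, 30.7 and 27.9 RPM in naive_untreated, 26.1, 26.2, 29.7 and 30.1 in naive_GEMy, 31.6, 30.3, 32.1 and 31.8 in tumor_untreated, 24.3, 24.2, 31.6 and 29.9 in tumor_GEMy lungs and 26.9 in the cell product. Trim33, which acts in TGF-beta signalling, measured 52.6, 54.1, 60.6 and 48.1 RPM in naive_untreated, 43.1, 51.6, 51.6 and 54.7 in naive_GEMy, 53.6, 52.1, 60.7 and 56.3 in tumor_untreated, 48.3, 49.2, 54.6 and 66.6 in tumor_GEMy lungs and 92.6 in the cell product. In limma 0 of the 4 TIF1 genes (Trim66 is the fourth) passed in any of the 5 comparisons, and 1 of them, Trim24, had an unadjusted p under 0.05, with treatment in tumor-bearing lung (-0.20). For Trim28 the intervals of the log2 difference were -0.26 to 0.044 with tumor and -0.12 to 0.18 with treatment in naive lung. Of 10 partners in KRAB repression, Morc3 rose (0.47, adjusted p = 0.00627) and Chd3 fell (-0.38, adjusted p = 0.00219) with tumor alone, and limma called 0 in the other comparisons. Over all genes, 14.7% rose and 26.0% fell with tumor alone, and 5.12% rose and 1.58% fell with treatment in naive lung.

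Of 4 TRIM genes of striated muscle 3 fell with tumor alone, as did 26.0% of all genes. Trim63 (MuRF1) and its relatives Trim55 (MuRF2) and Trim54 (MuRF3) bind the sarcomere and tag its proteins in skeletal and cardiac muscle, and mouse lung contains cardiac muscle in the walls of its pulmonary veins. Trim63 measured 2.18, 2.22, 2.00 and 2.39 RPM in naive_untreated, 2.89, 2.18, 2.60 and 2.25 in naive_GEMy, 1.72, 1.65, 1.34 and 1.08 in tumor_untreated, 0.924, 0.734, 1.06 and 1.87 in tumor_GEMy lungs and 0 in the cell product. It fell in tumor_untreated (log2 difference -0.48 ± 0.17 (SE), adjusted p = 0.0316) and was lower in tumor_GEMy than in naive_GEMy lungs (log2 difference -0.89 ± 0.17 (SE), adjusted p = 0.00376). Leaving out naive_untreated replicates 1, 2 or 4 or tumor_untreated replicates 3 or 4 ended the first call (adjusted p 0.0582 to 0.11). Median-of-ratios scaling also ended it (adjusted p = 0.0583).

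Trim54 measured 1.83, 2.25, 1.37 and 1.92 RPM in naive_untreated, 1.68, 1.44, 2.35 and 1.70 in naive_GEMy, 1.66, 0.973, 0.943 and 0.709 in tumor_untreated, 1.52, 1.03, 1.63 and 1.61 in tumor_GEMy lungs and 0 in the cell product. Trim55 measured 1.22, 1.26, 1.09 and 1.35 RPM in naive_untreated, 0.740, 1.14, 0.808 and 0.738 in naive_GEMy, 0.845, 0.843, 1.02 and 0.431 in tumor_untreated, 0.788, 0.667, 0.847 and 1.45 in tumor_GEMy lungs and 0.257 in the cell product. Both were near 1 to 2 RPM in naive lungs, with the lowest lung value of each in tumor_untreated replicate 4. With tumor alone Trim54 fell, differing by -0.60 ± 0.18 on the log2 scale (SE, adjusted p = 0.014), and without tumor_untreated replicate 4 it was at -0.48 (adjusted p = 0.0559). Trim55 also fell, differing by -0.45 ± 0.17 on the log2 scale (SE, adjusted p = 0.0445), and that call ended without any of the naive_untreated libraries, tumor_untreated replicates 2 or 4, naive_GEMy replicates 1, 3 or 4 or tumor_GEMy replicate 3 (adjusted p 0.0504 to 0.173), and with the replicate number as a block (adjusted p = 0.0593). The Trim55 call also ended with median-of-ratios scaling (adjusted p = 0.0728), quantile normalization (adjusted p = 0.0532) or only the compared groups fitted (adjusted p = 0.0505). Trim72 (MG53), which repairs muscle membranes, passed no test.

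Of 11 cardiac muscle markers 8 fell with tumor alone, beside 26.0% of all genes, and Sln (-0.74) and Myl7 (-0.70) led them. Among treated lungs, where Trim63 differed by -0.89, tumor changed 0 of the 11 past the threshold in limma, with a median of -0.24. Their sum was 592 to 803 RPM in naive_untreated, 575 to 714 in naive_GEMy, 313 to 633 in tumor_untreated and 366 to 695 in tumor_GEMy lungs, and 3.25 RPM in the product, where Myh6, Tnnt2, Sln, Myl7, Nppa, Myl3 and Actn2 were at 0. Of 5 tested skeletal muscle markers 1 fell with tumor alone, Ckm (-0.65), and 1 among treated lungs, Atp2a1 (-1.06). In tumor_GEMy replicates 1 to 4 the cardiac marker sum was 515, 366, 575 and 695 RPM, and Trim63 was 0.924, 0.734, 1.06 and 1.87 RPM. Trim63 ranked in the order of that sum within tumor_GEMy and within tumor_untreated, and not within the naive groups. The part of the muscle content of each lung piece in the MuRF values was not tested.

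Trim10 and Trim58 act in late erythroid cells, Trim10 in their terminal differentiation and Trim58 in the loss of dynein before the nucleus is expelled. Trim10 (chromosome 17, 36869574 to 36877833, plus strand) measured 2.04, 1.47, 1.06 and 0.707 RPM in naive_untreated, 0.471, 0.522, 1.34 and 0.513 in naive_GEMy, 14.3, 11.3, 4.64 and 34.3 in tumor_untreated, 24.7, 14.3, 2.09 and 2.99 in tumor_GEMy lungs and 0.0321 in the cell product. All tumor-bearing lungs exceeded all naive lungs, over a wide range. Tumor raised it 7.61-fold in untreated lung (log2 difference 2.93 ± 0.67 (SE), adjusted p = 0.00387) and 6.54-fold among treated lungs (log2 difference 2.71 ± 0.67 (SE), adjusted p = 0.0227). The second call was lost without naive_GEMy replicates 1 or 2 or tumor_GEMy replicates 1 or 2 (adjusted p 0.0533 to 0.0625), and with only the compared groups fitted (adjusted p = 0.0646).

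Trim58 (chromosome 11, 58640465 to 58652404, plus strand) measured 0.143, 0.170, 0.0352 and 0.135 RPM in naive_untreated, 0.0672, 0.0614, 0.0703 and 0.0321 in naive_GEMy, 0.814, 0.454, 0.508 and 1.20 in tumor_untreated, 1.47, 1.13, 0.333 and 0.263 in tumor_GEMy lungs and 4.15 in the cell product. Each tumor-bearing lung was above each naive lung. Naive levels rest on very few reads, 14 in all 4 naive_untreated libraries, so the log2 difference depends on the 0.5 RPM added. Trim58 reached 0.5 RPM only in tumor-bearing lungs, so it passed the minimum for testing only through the groups where it was high. Its calls are therefore given as description. The differences were 0.97 ± 0.26 on the log2 scale (SE, adjusted p = 0.00655) in untreated and 1.10 ± 0.26 on the log2 scale (SE, adjusted p = 0.0124) in treated lungs. Erythroid markers, 10 listed genes, summed to 1559 to 11810 RPM in naive_untreated, 852 to 2671 in naive_GEMy, 4222 to 42673 in tumor_untreated and 2422 to 18333 in tumor_GEMy lungs, and with tumor alone 3 of them rose, among them Slc4a1 (2.72), and 1 fell, Tfrc (-0.43), named after its value was seen. With hemoglobin as a covariate the tumor difference was 1.95 (adjusted p = 0.00639) for Trim10 and 0.62 (adjusted p = 0.0467) for Trim58 in untreated lung, and 1.26 (adjusted p = 0.272) and 0.57 (adjusted p = 0.285) among treated lungs. That covariate left 157 higher and 48 lower genes of all genes in the treated comparison, in place of 593 and 1014, and 1964 higher and 2375 lower in the untreated comparison. It also ended the tumor calls of Trim15, Trim25, Trim29, Trim32, Trim54, Trim55 and Trim63 in untreated lung (adjusted p 0.0565 to 0.26) and those of Trim7, Trim8, Trim30a, Trim46, Trim62 and Trim63 among treated lungs (adjusted p 0.0808 to 0.338). Several of these differences stayed about as large: Trim25 was at 0.18 and Trim54 at -0.51 in untreated lung, and Trim7 at -0.66 and Trim62 at -0.29 among treated lungs. Others shrank, such as Trim55 to -0.26 in untreated lung. Hemoglobin took 0.0735 to 0.252% of reads in naive_GEMy and 0.225 to 1.78% in tumor_GEMy lungs. The covariate thus largely followed tumor status among treated lungs, and blood content and tumor cannot be told apart there. The part of blood content in the Trim10 and Trim58 values was not tested.

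**Figure D4:**
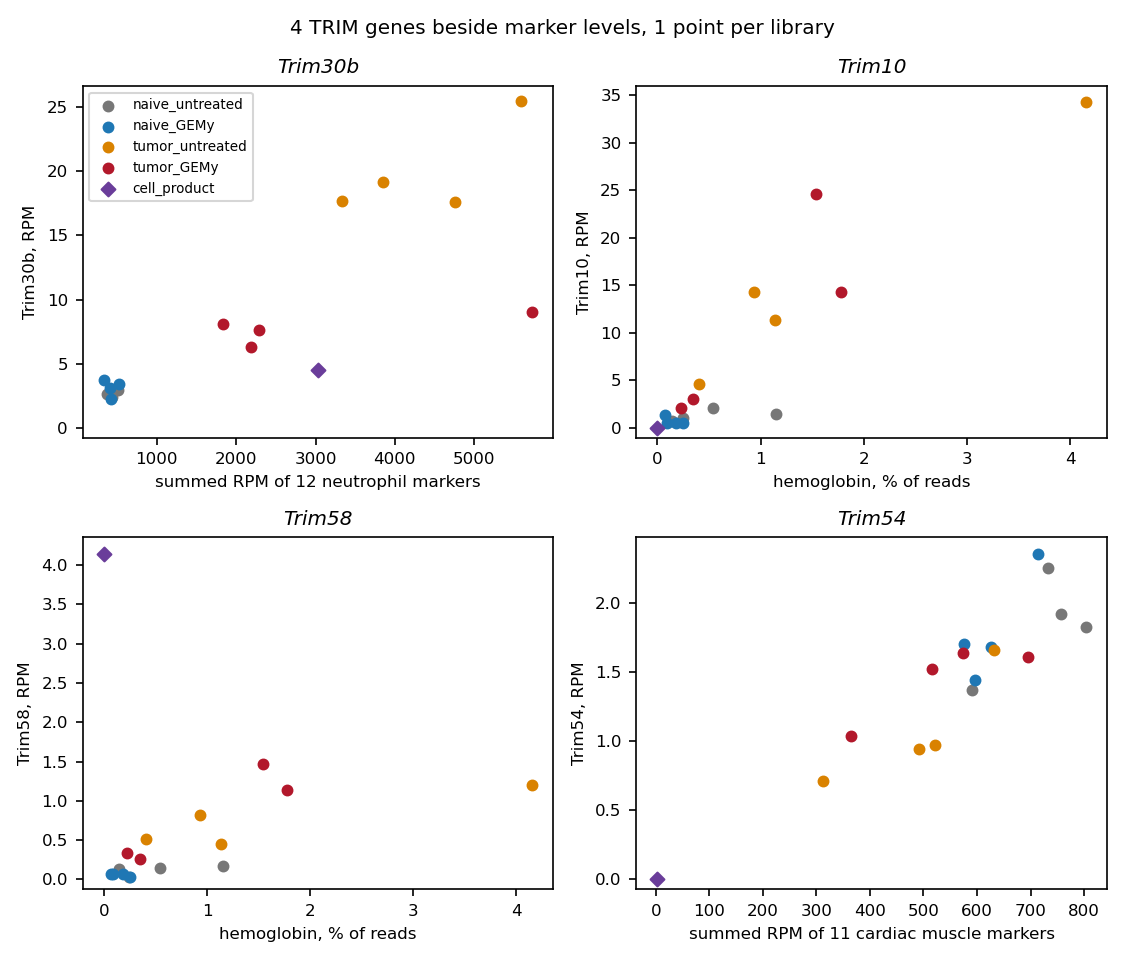
RPM of Trim30b, Trim10, Trim58 and Trim54 (vertical axes) beside the summed RPM of neutrophil or cardiac muscle markers or the hemoglobin share of reads (horizontal axes), 1 point per library, coloured by group. The tumor_GEMy library with 5730 RPM of neutrophil markers has 9.02 RPM of Trim30b, the highest of its group and below all tumor_untreated libraries. The product has 4.15 RPM of Trim58 with almost no hemoglobin.

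Several further TRIM genes fell with tumor. Trim7, a ligase that binds glycogenin, measured 6.23, 9.35, 8.34 and 9.79 RPM in naive_untreated, 8.27, 6.48, 6.12 and 6.71 in naive_GEMy, 4.95, 5.52, 6.28 and 5.46 in tumor_untreated, 4.54, 4.37, 3.42 and 4.77 in tumor_GEMy lungs and 1.83 in the cell product. It fell with tumor in untreated (log2 difference -0.55 ± 0.14 (SE), adjusted p = 0.00463) and treated lungs (log2 difference -0.63 ± 0.14 (SE), adjusted p = 0.00844). Trim46, which organises microtubules at the start of the axon, measured 5.15, 5.76, 5.70 and 5.79 RPM in naive_untreated, 5.75, 6.02, 5.73 and 4.88 in naive_GEMy, 3.71, 4.74, 4.75 and 3.76 in tumor_untreated, 4.37, 4.17, 4.42 and 3.98 in tumor_GEMy lungs and 4.56 in the cell product. It fell, differing by -0.37 ± 0.10 on the log2 scale (SE, adjusted p = 0.00791) in untreated lung and by -0.36 ± 0.10 on the log2 scale (SE, adjusted p = 0.0305) among treated lungs. The second call was lost without naive_GEMy replicates 1, 2 or 3 or tumor_GEMy replicates 1, 2 or 4 (adjusted p 0.0576 to 0.0887). Median-of-ratios scaling also ended it (adjusted p = 0.0656).

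Trim29, a TRIM protein without a RING that is found in epithelia, measured 3.58, 3.24, 3.90 and 3.94 RPM in naive_untreated, 3.43, 3.68, 3.48 and 3.85 in naive_GEMy, 3.35, 2.76, 2.65 and 2.16 in tumor_untreated, 2.93, 3.73, 4.06 and 3.55 in tumor_GEMy lungs and 0 in the cell product. It fell with tumor (log2 difference -0.38 ± 0.12 (SE), adjusted p = 0.0195), a call lost when replicate 4 of naive_untreated (adjusted p = 0.0535) or of tumor_untreated (adjusted p = 0.0757) was left out, while treatment in tumor-bearing lung gave 0.34 (95% interval 0.086 to 0.59, adjusted p = 0.124). Without tumor_untreated replicate 1 this last value was 0.43 (adjusted p = 0.0373). Of 9 airway epithelial markers 8 fell with tumor alone, beside 26.0% of all genes. With treatment in tumor-bearing lung 1 rose, Muc5b (0.92), beside 2.42% of all genes. The part of airway content in the Trim29 values was not tested.

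Trim59, a ligase anchored in membranes, measured 8.84, 10.1, 9.18 and 7.44 RPM in naive_untreated, 8.81, 10.3, 10.6 and 12.03 in naive_GEMy, 7.54, 9.08, 12.1 and 16.2 in tumor_untreated, 10.3, 11.5, 11.7 and 14.99 in tumor_GEMy lungs and 82.3 in the cell product. Tumor alone gave 0.27 (95% interval -0.10 to 0.65, adjusted p = 0.227), which passed without tumor_untreated replicate 1 (0.44, adjusted p = 0.0378). Trim2, known for its role in neurons, measured 44.3, 37.5, 46.9 and 39.7 RPM in naive_untreated, 33.6, 38.98, 46.8 and 42.3 in naive_GEMy, 39.8, 40.3, 44.04 and 36.5 in tumor_untreated, 31.4, 34.5, 39.7 and 42.9 in tumor_GEMy lungs and 0.675 in the cell product and passed no test in the lung. The remaining calls were falls with tumor alone of Trim3 (-0.52, adjusted p = 0.00436), Trim32 (-0.29, adjusted p = 0.00802), Trim45 (-0.48, adjusted p = 0.00333) and Trim62 (-0.32, adjusted p = 0.00345), and the fall of Trim62 among treated lungs (-0.34, adjusted p = 0.0121). With tumor alone 5 of 7 B cell markers, 6 of 9 alveolar epithelial markers and 5 of 8 endothelial markers fell and 0 rose. Of all genes 26.0% fell and 14.7% rose there. The part of these markers in the falls of TRIM genes was not tested. Among all 50 calls over the 5 comparisons, 30 were kept under every alternative that tested the gene. The other 20 were lost under at least 1, and 0 changed sign.

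The injected cells were set beside untreated lung. With 1 product library there is no test, and levels were compared with the mean of the 4 naive_untreated lungs, with a ratio past 4-fold taken as different. Of 51 TRIM genes considered, 3 were higher, beside 9.11% of 15612 genes, and 15 were lower, beside 29.0%, a share near that of all genes. Intervals here cover counting error of reads alone. Trim58 was 34.3-fold higher (counting interval 19.7 to 64.3, 129 reads in the product and 14 in 4 lungs). Trim59 was 9.28-fold higher (8.63 to 9.99), with 82.3 RPM against 8.88 RPM. Trim30a was 5.31-fold higher (5.14 to 5.50), with 257 RPM against 48.3 RPM. The product had 0.000356% of hemoglobin reads and no read of Slc4a1. The 10 erythroid markers summed to 509 RPM in it, or 0.0509% of reads. Nearly all of that sum thus came from markers other than hemoglobin, and the share of each is not given here.

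Trim28, Trim30d and Trim27 were 3.34, 3.17 and 3.05-fold higher, inside the limit. Among the lower genes, Trim2 stood at 0.675 RPM against 42.1 RPM, 62.3-fold lower (40.7 to 101). The product had 0 reads of Trim29, Trim63, Trim54 and Trim67, so that against a floor of 3 reads they were at least 38.0, 22.8, 19.1 and 11.0-fold lower. Trim10 and Trim15 had 1 read each (counting intervals 7.19 to 1618 and 5.55 to 1256-fold lower) and Trim72 had 3 reads (9.44 to 136-fold lower). Trim3, Trim7, Trim16, Trim17, Trim55, Trim62 and Trim68 were 4.10 to 6.68-fold lower. The counting intervals of Trim17 (6 reads, 3.00 to 18.5), Trim55 (8 reads, 2.36 to 11.3), Trim7 (3.53 to 6.14) and Trim68 (3.38 to 5.00) reached under the limit of 4-fold. Trim68 (4.10-fold lower) lay just past the limit and Trim47 (3.87-fold lower) just inside it.

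**Figure D5:**
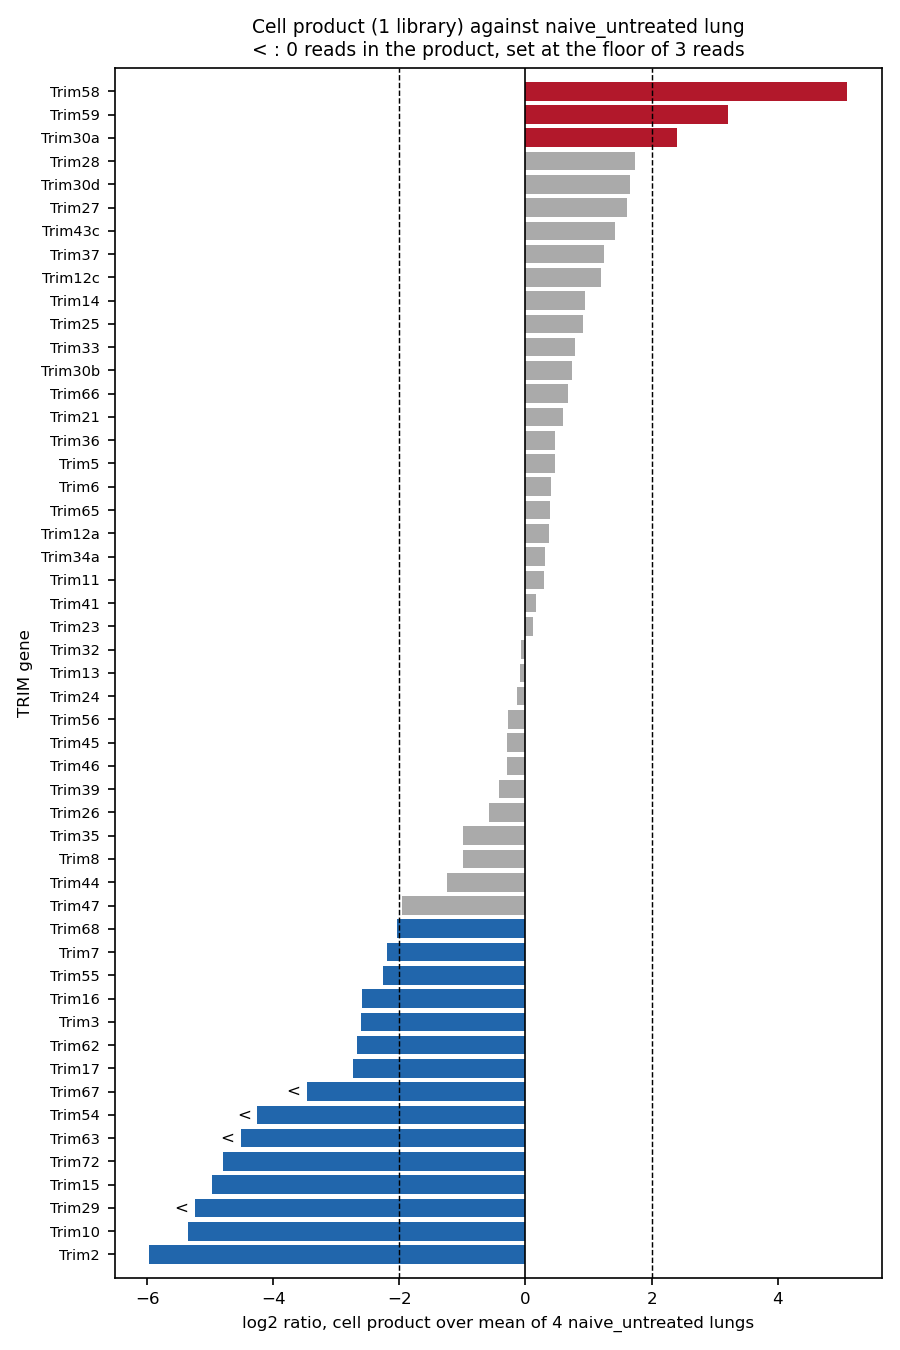
Log2 ratio of the cell product (1 library) to the mean of 4 naive_untreated lungs for 51 TRIM genes, coloured past 4-fold (dashed lines), with < for genes at 0 reads in the product, set at a floor of 3 reads. Trim58, Trim59 and Trim30a are the 3 bars past the upper line, and 15 bars pass the lower line.

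Myeloid progenitor markers summed to 3604 RPM in the product, against 520 to 559 RPM in naive_untreated lungs. Trim30a, higher in the product and in every changed lung group, was raised in naive_GEMy lungs to a mean of 105 RPM, and Trim21, raised there to 58.9 RPM, stood at 40.9 RPM in the product. Trim59 and Trim58, the genes highest in the product relative to lung, were at 0.22 (adjusted p = 0.531) and -0.15 (adjusted p = 0.797) log2 units with treatment in naive lung. The part of the injected cells in the lung values was not tested.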

How the data were processed

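RNA sequencing libraries of 16 mouse lungs and 1 cell product were analysed. The authors deposited 1 table of FPKM values with 1 column per library. STAR 2.7.3a, Partek and the mm10 build are named in the submitters' processing notes, and their settings, the annotation and the use of strand are not given in the sources used here. The length in the deposited FPKM is the gene span with introns: FPKM multiplied by span in kilobases summed to 1000000 in every column, so RPM was taken as that product. Read numbers were recovered from the steps of low values, 86.6 to 88.4% of values under 1000 reads being whole within 0.02 reads.

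Limma 3.58.1 in R 4.3.3 was fitted to log2(RPM + 0.5) of genes with at least 0.5 RPM in at least 4 lung libraries, with 4 group means over 16 lungs, trend and robust moderation, and Benjamini-Hochberg adjustment over all genes. On simulated data with 15246 genes for tumor_untreated against naive_untreated, 71% of genes changed 1.5-fold and 91% of genes changed 2-fold were called, with 12 false calls. The alternatives were other pseudocounts, minimums, scalings and moderation, the FPKM scale, fits of the compared groups alone, a replicate block, a hemoglobin covariate and leaving out each library. The product was compared by ratio, with counting intervals at 95% for counting error only. Shared transcript sequence was measured in windows of 50 bases.

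TRIM genes were taken by symbol. The members, the lists and the rule for genes given by library (a fixed set of TRIM genes plus the 3 largest rises and falls of each pairwise comparison) were chosen with earlier results of these data known. Trim30c was in that set and was not analysed here. Partner and marker lists are given by their counts and their 2 most changed genes, of which 1 is not reported here.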

Additional observations from a re-analysis of the deposited data

Results flagged for a closer look

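Among 108 groups of 4 libraries, 7 held a library far from the other 3 by Dixon's criterion, which chance gives in about 1 in 20 groups. The highest values that stood apart were Trim5 at 11.8 RPM in naive_untreated replicate 3, Trim10 at 1.34 RPM in naive_GEMy replicate 3 and Trim56 at 51.2 RPM in tumor_untreated replicate 3. The lowest were Trim12a at 35.1 RPM and Trim34a at 50.9 RPM, both in naive_GEMy replicate 2, Trim26 at 59.7 RPM in tumor_untreated replicate 1 and Trim46 at 5.15 RPM in naive_untreated replicate 1. The effect of IL12-GEMy differed between tumor-bearing and naive lung by a limma interaction for Trim30b (-1.47), Trim30a (-1.05), Trim30d (-0.90) and Trim12a (-0.59).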

How the results depend on the processing

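Of the 50 calls of TRIM genes, 30 kept their direction and their side of the threshold in every alternative that tested the gene. The other 20 were lost in at least 1, and 0 changed sign. An alternative whose minimum left a gene untested was not counted as a loss. On the FPKM scale only 31 of the 50 TRIM genes passed the minimum, so some calls dropped out there because the gene was not tested. On that scale tumor lowered 6 TRIM genes in untreated lung, and among treated lungs it raised 2 and lowered 3. With hemoglobin as a covariate, tumor lowered 8 in untreated lung and raised 1 and lowered 0 among treated lungs, and treatment in tumor-bearing lung lowered 1. With only the compared groups fitted, treatment lowered 1 in naive lung and raised 1 and lowered 1 in tumor-bearing lung. Treatment in tumor-bearing lung also lowered 1 with no minimum, with quantile normalization and with plain moderation. Median-of-ratios scaling left 3 lower among treated lungs. In the product a limit of 2-fold gave 9 higher and one of 8-fold gave 8 lower. Beyond construction of these alternatives the cause was not tested.

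Leaving out 1 library at a time gave 9 to 11 higher and 10 to 16 lower with tumor in untreated lung, 7 to 8 and 0 to 1 with treatment in naive lung, 1 to 4 and 1 to 2 with treatment in tumor-bearing lung, 2 to 5 and 3 to 6 with tumor among treated lungs, 0 to 1 and 3 to 7 for the interaction, and 3 higher and 14 to 16 lower in the product. The single rise with treatment in tumor-bearing lung came without tumor_GEMy replicate 2, and 2 rises without tumor_GEMy replicate 4 or tumor_untreated replicate 2. Among treated lungs 2 rises were left without naive_GEMy replicates 1 or 2 or tumor_GEMy replicates 1 or 2, and 3 falls without naive_GEMy replicates 1, 2 or 3 or tumor_GEMy replicates 1, 2 or 4. The 7 negative interactions came without tumor_untreated replicate 1. Trim30d, uncalled with tumor among treated lungs, was called with median-of-ratios scaling (adjusted p = 0.0497), with only the compared groups fitted (adjusted p = 0.00812), with the replicate block (adjusted p = 0.0439) and without tumor_untreated replicates 1 (adjusted p = 0.00689) or 4 (adjusted p = 0.0224).

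Over all genes, several counts moved by more than 1.5 times. Fitting only the compared groups gave 638 lower in place of 243 with treatment in naive lung, and 132 higher and 111 lower in place of 373 and 433 in tumor-bearing lung. The FPKM scale gave 154 lower with treatment in naive lung, among 10284 genes tested in place of 15422. Median-of-ratios scaling gave 2522 lower in place of 4006 with tumor in untreated lung and 485 in place of 1014 among treated lungs. The hemoglobin covariate gave 2375 lower with tumor in untreated lung, 157 higher and 48 lower among treated lungs and 411 lower with treatment in naive lung. Leaving out 1 library gave 95 to 430 lower with treatment in naive lung (lowest without naive_GEMy replicate 4, highest without tumor_untreated replicate 4, and also moved without naive_untreated replicates 1, 2 or 3, naive_GEMy replicates 1 or 2 or tumor_untreated replicate 1). With treatment in tumor-bearing lung it gave 236 to 699 lower in place of 433 (moved without tumor_untreated replicates 1, 2 or 3 or tumor_GEMy replicate 2). With tumor among treated lungs it gave 368 to 775 higher in place of 593 and 412 to 1517 lower in place of 1014 (rises moved without naive_GEMy replicates 1 or 2, falls also without naive_GEMy replicate 3 or tumor_GEMy replicates 1 or 2). The interaction had 78 to 486 positive in place of 159 and 421 to 1092 negative in place of 608, both highest without tumor_untreated replicate 1 (positive calls also moved without naive_untreated replicates 1 or 2, naive_GEMy replicates 1 or 4, tumor_untreated replicate 3 or tumor_GEMy replicate 2). Quantile normalization changed the balance of calls with tumor among treated lungs to 671 higher and 722 lower. It left the TRIM genes at 4 higher and 5 lower there, as in the main fit.

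With the replicate number as a block, tumor in untreated lung gave 10 higher and 14 lower TRIM genes, treatment in naive lung 7 and 0, treatment in tumor-bearing lung 4 and 2, tumor among treated lungs 5 and 6, and the interaction 0 and 4, and over all genes the block raised the positive interactions from 159 to 239. Whether the numbers pair the libraries was not settled. Of 24 same-numbered pairs, 12 had deviations correlated above 0.1 (-0.25 to 0.49), and the median of the other pairs was -0.028. Among the 16 libraries, 6 correlated best with their own number. At these depths genes with few reads, such as Trim58, Trim54 and Trim55, are the least precise.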
